A study of Mus musculus with 6 samples.

Results

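The genes that write, read and erase DNA methylation were followed in MB49 cells, a bladder cancer line of a male mouse, after CRISPR editing against the Y chromosome. The set was chosen by gene name: all 10 names were found among the 54532 genes of the count table, and 7 of them passed the filter on low counts. The tested cells were 3 libraries of CRISPR Y-KO and the controls 3 libraries of CRISPR Y-Scr, which carried a guide RNA without a target. Both groups came from the Y-positive form of MB49, were transduced, sorted for tRFP, a red fluorescent marker, and expanded from single cells, and the labels place all 6 in batch 1. Poly-A RNA was made into stranded libraries. The labels name the source both as bladder cancer cells and as MB49 tumor. The labels do not say whether the libraries of a group were separate cultures or clones, so p-values measure only the spread between these libraries, which may be technical, and a difference between clones cannot be told apart from an effect of the edit. The labels give no guide for Y-KO, and they repeat the control's guide text for every sample.

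DNA methylation is set on cytosines followed by guanine by DNA methyltransferases. Dnmt1 copies the marks after replication, guided by Uhrf1, which binds DNA methylated on the old strand alone, while Dnmt3a and Dnmt3b set marks on unmethylated DNA with Dnmt3l as a cofactor without catalytic activity of its own. The Tet enzymes oxidise methylcytosine, the first step of its removal, and Mbd2 is a reader that brings the NuRD chromatin remodelling complex to methylated DNA.

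The libraries held between 15698510 and 24633158 counts. The Y genes Ddx3y, Eif2s3y, Kdm5d and Uty summed to 0 CPM (counts scaled to library size with TMM factors) in every Y-KO library and to 370 to 430 CPM in the Y-Scr libraries. Of 13 markers of urothelium and epithelium, only 4 passed the filter on low counts. The cells expressed the keratin genes Krt8 and Krt18 strongly, while Epcam, Cdh1 and Upk3a were at 0 counts in all 6 libraries. The summed level of this list was 4013 to 4318 CPM in Y-KO and 3352 to 3720 CPM in Y-Scr. Of 10 leukocyte markers, 5 were at 0, among them Ptprc, Cd3e, Itgam and Nkg7, and the list summed to 95.3 to 101 CPM in Y-KO and 108 to 116 CPM in Y-Scr, nearly all of it Cd68. The 9 fibroblast markers summed to 5294 to 5559 CPM in Y-KO and 4788 to 5372 CPM in Y-Scr, nearly all of it Vim, and Pdgfrb was at 0. Endothelial markers reached 0.995 to 1.45 CPM in Y-KO and 0.544 to 1.127 CPM in Y-Scr, with Emcn at 0. Markers of pluripotent and germ cells stayed at 0 to 0.113 CPM in Y-KO and 0 to 0.302 CPM in Y-Scr, with 6 of 9, among them Pou5f1 and Nanog, at 0. The part of these marker levels in the results below was not tested.

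Promoter sequences of RefSeq (build GRCm38.p6, 250 bases before to 50 after a start) were found for 9 of the 10 genes. They are shown for Dnmt1 and Uhrf1, whose RNA rose together, and for Dnmt3a, which rose most among the 7 tested genes. Uhrf2, the paralog of Uhrf1 that did not pass the test, is shown as well. Capitals mark the E2F site words searched, TTTCCCG and TTTCGCG and TTTGCCG and TTTGGCG, on either strand and also where they overlap another match. E2F factors are known for driving genes of DNA replication.
Dnmt1: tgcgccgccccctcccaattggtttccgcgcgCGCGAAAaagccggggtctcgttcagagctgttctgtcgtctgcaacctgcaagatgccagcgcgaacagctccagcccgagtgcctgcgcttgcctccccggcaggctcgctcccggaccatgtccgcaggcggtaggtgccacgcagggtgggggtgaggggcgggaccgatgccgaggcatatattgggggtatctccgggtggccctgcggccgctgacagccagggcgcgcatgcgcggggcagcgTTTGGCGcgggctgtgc
Uhrf1: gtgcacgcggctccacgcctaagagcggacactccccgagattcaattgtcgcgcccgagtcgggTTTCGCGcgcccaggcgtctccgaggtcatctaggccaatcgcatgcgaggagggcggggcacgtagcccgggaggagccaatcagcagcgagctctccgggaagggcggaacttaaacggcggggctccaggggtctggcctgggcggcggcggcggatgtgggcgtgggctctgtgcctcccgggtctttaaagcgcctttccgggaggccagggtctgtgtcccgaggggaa
Dnmt3a: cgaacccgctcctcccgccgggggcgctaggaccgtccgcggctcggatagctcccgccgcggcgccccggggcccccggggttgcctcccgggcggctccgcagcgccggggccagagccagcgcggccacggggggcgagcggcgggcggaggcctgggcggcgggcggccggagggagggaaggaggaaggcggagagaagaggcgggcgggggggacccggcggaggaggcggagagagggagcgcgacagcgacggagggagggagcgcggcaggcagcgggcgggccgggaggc
Uhrf2: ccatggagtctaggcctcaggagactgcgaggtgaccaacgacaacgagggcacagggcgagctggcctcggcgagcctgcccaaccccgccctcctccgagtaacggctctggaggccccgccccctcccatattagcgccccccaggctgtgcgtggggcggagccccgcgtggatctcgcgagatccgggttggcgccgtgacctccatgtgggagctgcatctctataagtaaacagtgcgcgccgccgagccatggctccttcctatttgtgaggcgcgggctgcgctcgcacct
The Dnmt1 window, on the minus strand at chr9:20952574-20952873, held 2 matches and 33 CpG dinucleotides, and the Uhrf1 window, on the plus strand at chr17:56304063-56304362, held 1 match and 33 CpG. Neither the Dnmt3a window (plus strand, chr12:3806730-3807029, 46 CpG) nor the Uhrf2 window (plus strand, chr19:30030263-30030562, 28 CpG) held one. Among all 32851 promoters in the table, 6.7% held at least 1 match and 0.463% at least 2, and the median was 7 CpG. Every word searched contains CG, and the Dnmt1 and Uhrf1 windows each had more CpG than 91.4% of promoters. The share among promoters of as many CpG was not computed, so how rare such matches are at that content is not known. For Dnmt1 and Uhrf1, the start shown is the one that held a match. The shares over all promoters are per start and do not allow for this choice among several starts of a gene. The 2 other Dnmt1 starts, the other Uhrf1 start, the 2 other Dnmt3a starts and the starts of Dnmt3b, Dnmt3l, Tet1, Tet2 and Tet3 held no match. The Tet2 window had 57 CpG, more than 99.8% of promoters, and the Tet3 window had 22. A match is a run of letters, not a site shown to be bound.

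Of the 7 tested genes, 4 rose in Y-KO and 0 fell at an adjusted p under 0.05 in edgeR's quasi-likelihood test with Benjamini-Hochberg adjustment over 12907 genes. Among all tested genes, 20.7% rose and 23.0% fell, so that 43.6% changed in either direction. The CPM of the groups did not overlap for 52.9% of them, with Y-KO above for 25.4% and below for 27.5%. The 4 were the methyltransferase genes Dnmt1 and Dnmt3a, the maintenance factor Uhrf1 and the eraser Tet3. At an unadjusted p under 0.05 no further gene passed in either direction, and DESeq2 and limma-voom each gave 4 higher and 0 lower. The median log2 fold change (Y-KO minus Y-Scr) of the 7 was 0.51, against -0.01 over all tested genes, whose quartiles were -0.29 and 0.25. Once the length trend of each library was removed, the median of the 7 was 0.29. With the trends on length and GC content removed it was 0.14, against 0.00 over all tested genes. That 0.14 lies within the quartiles given, but those are from the fit with no trend removed and were not computed for the others. In bulk RNA, fewer cells with a transcript and less of it per cell cannot be told apart.

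Dnmt1, the maintenance methyltransferase (ENSMUSG00000004099, chromosome 9, 20907209 to 20959888, GRCm38), held 303, 344 and 304 CPM in Y-KO libraries 1 to 3, against 219, 177 and 197 CPM in Y-Scr libraries 1 to 3. Every Y-KO library lay above every Y-Scr library, and Y-KO 2 was the highest. The mean was 317 ± 23.6 CPM in Y-KO and 198 ± 20.97 CPM in Y-Scr (SD, n = 3 each). That was a 1.602-fold rise, a log2 fold change of 0.68 ± 0.08 (SE) with an adjusted p of 1.0e-06 in edgeR's test.

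Uhrf1 (ENSMUSG00000001228, chromosome 17, 56303321 to 56323486), whose protein brings Dnmt1 to newly copied DNA, held 205, 213 and 206 CPM in Y-KO, against 141, 128 and 136 CPM in Y-Scr. The groups did not overlap and the libraries of each lay close together. It rose 1.54-fold, with a log2 fold change of 0.63 ± 0.06 (SE) and an adjusted p of 1.5e-07 (edgeR). The log2 CPM values of Dnmt1 and Uhrf1 had a Pearson r of 0.99 over the 6 libraries, which share the difference between the groups.

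Uhrf2, the paralog with a similar domain layout (ENSMUSG00000024817, chromosome 19, 30030513 to 30093722), held 94.1, 97.1 and 97.4 CPM in Y-KO and 93.4, 94.2 and 89.8 CPM in Y-Scr. The groups overlapped, since Y-KO 1 lay below Y-Scr 2. The log2 fold change was 0.06 ± 0.06 (SE), with an adjusted p of 0.502 in edgeR's test. It was -0.070 when each library's trend on gene length was removed.

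Within each library, the ratio of Uhrf1 to Uhrf2 in counts per base of gene length does not depend on library scaling. It was 4.40, 4.43 and 4.26 in Y-KO, against 3.04, 2.74 and 3.05 in Y-Scr. The Y-KO ratios all lay above the Y-Scr ratios, by 0.57 on the log2 scale. The exact two-sided permutation test gave p = 0.1, the smallest that 3 against 3 libraries allow, and 0.15 adjusted over the 3 ratios compared. The ratio of Dnmt1 to Uhrf1 was 0.852, 0.931 and 0.853 in Y-KO and 0.898, 0.800 and 0.839 in Y-Scr. These overlapped, with a difference of 0.06 on the log2 scale, an exact permutation p of 0.4 and an adjusted p of 0.4.

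**Figure D1:**
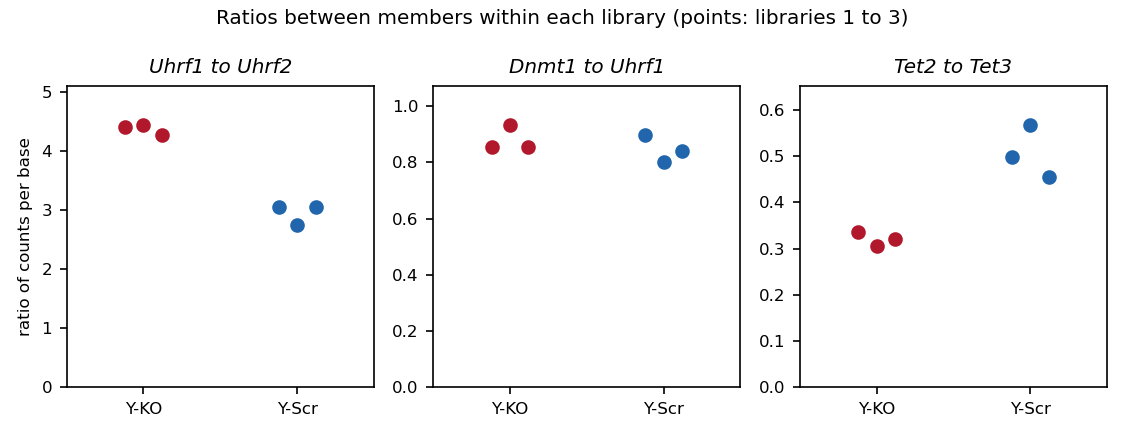
Ratios of counts per base between pairs of genes in each library, with Y-KO libraries 1 to 3 in red and Y-Scr libraries 1 to 3 in blue on linear axes from 0. The Uhrf1 to Uhrf2 ratio was 4.26 to 4.43 in Y-KO and 2.74 to 3.05 in Y-Scr, the Dnmt1 to Uhrf1 ratios overlapped, and the Tet2 to Tet3 ratio was 0.305 to 0.335 in Y-KO and 0.454 to 0.566 in Y-Scr.

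Among the enzymes that set new marks, Dnmt3a carried nearly all the reads. Dnmt3a (ENSMUSG00000020661, chromosome 12, 3806007 to 3914443) held 38.8, 42.8 and 33.3 CPM in Y-KO, against 20.1, 18.2 and 23.5 CPM in Y-Scr. All Y-KO libraries lay above all Y-Scr libraries. It rose 1.85-fold, with a log2 fold change of 0.89 ± 0.11 (SE) and an adjusted p of 3.9e-06 (edgeR), and one of 0.56 ± 0.10 with the trends on gene length and GC content removed.

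Dnmt3b (ENSMUSG00000027478, chromosome 2, 153649450 to 153687730) had 0 counts in all 6 libraries, which allows up to 0.0573 CPM over the Y-KO libraries and 0.0533 CPM over the Y-Scr libraries, taking 3 counts as the limit that a count of 0 leaves. Dnmt3l (ENSMUSG00000000730, chromosome 10, 78041947 to 78063622) had 2, 3 and 2 counts in Y-KO and 7, 3 and 4 counts in Y-Scr. The ratio of the summed levels was 0.538, with an exact 95% interval of 0.184 to 1.42 that covers counting error only, so no difference was detectable at this depth. Dnmt3l overlaps Aire on the opposite strand, which had 3 counts in Y-KO and 29 in Y-Scr, and no source used here says whether the counting used strand.

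The Tet genes, which encode the enzymes that oxidise methylcytosine, differed among themselves. Tet3 (ENSMUSG00000034832, chromosome 6, 83362373 to 83459084) held 53.7, 67.8 and 61.9 CPM in Y-KO, against 47.2, 41.0 and 40.9 CPM in Y-Scr. The groups did not overlap, with Y-KO 1 and Y-Scr 1 nearest to each other. It rose 1.42-fold, with a log2 fold change of 0.51 ± 0.09 (SE) and an adjusted p of 0.00024 (edgeR). With the trends on length and GC content removed, the difference was 0.14 ± 0.08 (adjusted p = 0.130) and the call was lost.

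Tet2 (ENSMUSG00000040943, chromosome 3, 133463679 to 133545139) held 18.2, 20.9 and 20.03 CPM in Y-KO and 23.7, 23.4 and 18.8 CPM in Y-Scr. The groups overlapped through Y-Scr 3, the lowest control. The log2 fold change was -0.15 ± 0.11 (SE), with an adjusted p of 0.295 in edgeR's test. It passed the test as lower once the length trend was removed (-0.37 ± 0.10, adjusted p = 0.0054) and with GC content removed as well (-0.38 ± 0.10, adjusted p = 0.0043). The antisense gene Gm42567, which overlaps Tet2 on the other strand, had 11 counts in Y-KO and 0 in Y-Scr.

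Tet2 and Tet3 have nearly the same gene length in the table, 16870 and 16695 bases. The ratio of Tet2 to Tet3 was 0.335, 0.305 and 0.320 in Y-KO, against 0.497, 0.566 and 0.454 in Y-Scr. The groups did not overlap, the difference was -0.65 on the log2 scale, and the exact permutation p was 0.1, or 0.15 adjusted over the 3 ratios. Transcript GC content differed between them, at 45.4% for Tet2 and 53.4% for Tet3. With the trends on length and GC content removed, the log2 fold change was -0.38 for Tet2 and 0.14 for Tet3. The part of length and GC content in the ratio was not tested.

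Tet1 (ENSMUSG00000047146, chromosome 10, 62804570 to 62908996) had 5 counts in Y-KO 1 and 0 in the other 5 libraries. With no low-count filter, edgeR gave Tet1 an adjusted p of 0.229 and Dnmt3l one of 0.594.

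Mbd2, the reader (ENSMUSG00000024513, chromosome 18, 70568189 to 70626131), held 94.2, 97.3 and 99.4 CPM in Y-KO and 88.1, 85.4 and 103 CPM in Y-Scr. The groups overlapped because Y-Scr 3 was the highest of all 6 libraries. Its log2 fold change was 0.07 ± 0.07 (SE), with an adjusted p of 0.478 in edgeR's test.

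**Figure D2:**
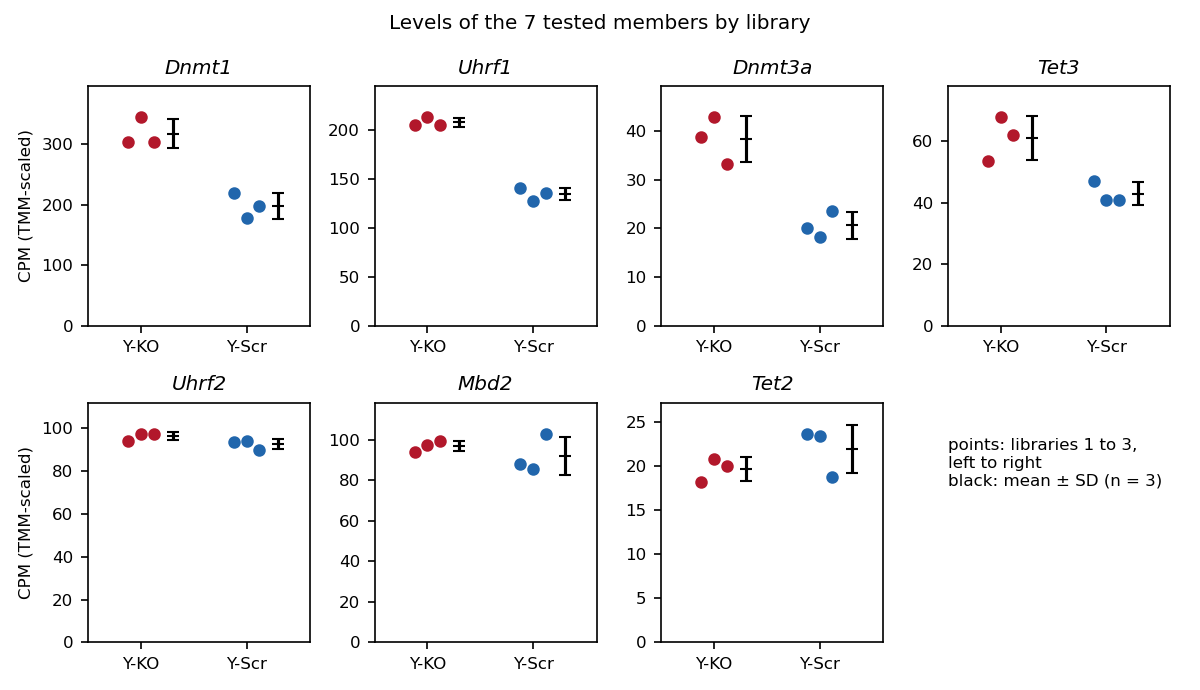
CPM of the 7 tested genes in each library (y axes linear, from 0), with Y-KO in red on the left and Y-Scr in blue on the right, and the mean ± SD of 3 libraries in black. Dnmt1, Uhrf1, Dnmt3a and Tet3 do not overlap between groups, as held for 25.4% of all tested genes with Y-KO above, while Uhrf2, Mbd2 and Tet2 do.

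Set per kilobase of gene length (RPKM, from the lengths in the deposited table, which count all exons of a gene), the order of the genes differed between the groups. In Y-KO, Uhrf1 (48.9 ± 1.08 RPKM) stood above Dnmt1 (43.0 ± 3.19), Mbd2 (30.2 ± 0.816), Uhrf2 (11.2 ± 0.215), Tet3 (3.66 ± 0.426), Dnmt3a (2.30 ± 0.287) and Tet2 (1.17 ± 0.0817), with no overlap between neighbours in that order (SD, n = 3). In Y-Scr, Uhrf1 (31.7 ± 1.53 RPKM), Mbd2 (28.7 ± 2.95) and Dnmt1 (26.8 ± 2.84) overlapped as neighbours, and so did Tet2 (1.30 ± 0.164) and Dnmt3a (1.24 ± 0.163). Uhrf2 (10.8 ± 0.270) and Tet3 (2.58 ± 0.217) stood apart from their neighbours in Y-Scr. Dnmt3l was at 0.0454 ± 0.0148 RPKM in Y-KO and 0.0882 ± 0.0519 in Y-Scr, below all 7.

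Across the transcriptome, the median log2 fold change differed with gene length and GC content. The part of these trends in the changes of the 7 tested genes was not tested. Over 5 equal groups of genes by length, the median log2 fold change was -0.14 in the shortest and 0.14 in the longest, and by GC content it was -0.12 in the lowest and 0.10 in the highest. Dnmt1, Dnmt3a, Uhrf2, Tet2 and Tet3 fall in the longest group, Uhrf1 in the third and Mbd2 in the second. By GC content, counted from the lowest, Dnmt1, Uhrf1, Dnmt3a and Tet3 fall in group 4. Mbd2 falls in group 5, and Uhrf2 and Tet2 in group 2. Removing each library's trend on length, and then on length and GC content, gave 0.58 and 0.46 for Dnmt1, 0.63 and 0.55 for Uhrf1, and 0.66 and 0.56 for Dnmt3a, all past the threshold in edgeR's test. Tet3 had 0.29 (adjusted p = 0.0040) and then 0.14 (0.130), so that 3 of 7 were higher and 1 of 7, Tet2, lower in the last fit. Uhrf2 stood at -0.070 and -0.075 and Mbd2 at 0.14 and 0.02, none past the threshold.

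**Figure D3:**
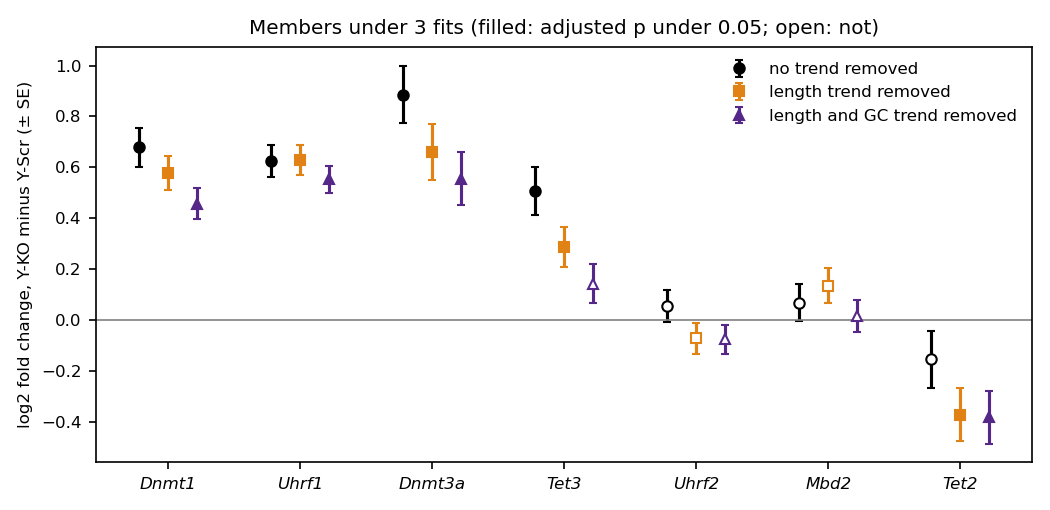
Log2 fold change (Y-KO minus Y-Scr, ± SE) of the 7 tested genes with no trend removed, with the length trend removed and with the length and GC trends removed, where filled symbols have an adjusted p under 0.05. Dnmt1, Uhrf1 and Dnmt3a stay filled in all 3 fits, Tet3 is open at 0.14 in the last, and Tet2 is filled at -0.37 and -0.38.

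The 7 tested genes lie on 7 different chromosomes. Among the 25 tested genes on each side, the median log2 fold change was 0.04 around Dnmt1, 0.02 around Uhrf1 and -0.06 around Tet3. It was 0.08 around Dnmt3a, which had 30 such neighbours since fewer tested genes lie on one side of it, and -0.09 around Tet2, -0.02 around Uhrf2 and -0.11 around Mbd2. Over all such windows the 5th and 95th percentiles were -0.18 and 0.14.

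The proteins that work with these enzymes were read from lists of the pathway. Of 12 tested partners of the DNMT and UHRF proteins, 8 rose and 0 fell (edgeR), with a median log2 fold change of 0.21. Over all tested genes, 20.7% rose and 23.0% fell. Trim28, a corepressor that recruits silencing factors to repeats, rose by 0.45 ± 0.06 (SE), Usp7, a deubiquitinase that binds Dnmt1 and Uhrf1, by 0.47 ± 0.07, the histone methyltransferase gene Ehmt2 by 0.41 ± 0.06 and the remodeller gene Hells by 0.34 ± 0.07. Zfp57 (-0.13 ± 0.10) and Kdm1b (-0.07 ± 0.09) did not pass, and Dppa3 had 0 counts. The count of 8 was 5 without Y-KO 1 and 5 with the replicate number as a block, DESeq2 gave 6 higher and 0 lower, limma-voom gave 7 higher and 0 lower, and 0 were lower at an unadjusted p under 0.05.

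Of 19 readers and NuRD subunits other than Mbd2, 10 rose and 1 fell, against 20.7% and 23.0% of all tested genes. The median of the 19 was 0.18. The rises were in NuRD subunits and Mbd3: Gatad2a rose by 0.61 ± 0.07 (SE), Chd4, the remodelling ATPase, by 0.57 ± 0.07, its paralog Chd3 by 0.57 ± 0.08 and Gatad2b by 0.58 ± 0.09. The methyl-CpG reader Zbtb33 (0.02 ± 0.10) did not pass. Rbbp4, the histone-binding subunit that fell by 0.18, lost that call without Y-KO 1, Y-KO 2, Y-KO 3 or Y-Scr 2, with upper-quartile scaling and with the block.

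Of 14 tested TET partners and base excision repair genes, 3 rose and 2 fell, against 20.7% and 23.0% of all tested genes. The median of the 14 was 0.07. Parp1, a sensor of DNA breaks, rose by 0.91 ± 0.07 (SE) and the endonuclease gene Apex1 by 0.44 ± 0.10. The third, the repair scaffold gene Xrcc1, stood at 0.28 ± 0.11 (adjusted p = 0.048, edgeR) with overlapping groups, and it lost its call with DESeq2, with the replicate block, with either trend fit, and without Y-KO 1, 2 or 3 or Y-Scr 1 or 2. Gadd45a, a stress gene linked to demethylation, fell by 1.75 ± 0.08, at 18.9 ± 0.388 CPM in Y-KO and 63.7 ± 1.46 CPM in Y-Scr (SD, n = 3 each), and the polymerase gene Polb fell by 0.86 ± 0.10. Ogt (0.04 ± 0.06), which binds the Tet proteins, and Idh2 (0.01 ± 0.06), which makes their cosubstrate, did not pass.

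In the methionine and folate cycle, which supplies the methyl donor, 4 of 13 tested genes rose and 0 fell, with a median of 0.12. Over all tested genes, 20.7% rose and 23.0% fell. Mthfd1 rose by 0.66 ± 0.06 (SE), Shmt1 by 0.61 ± 0.07, the folate carrier gene Slc19a1 by 0.49 ± 0.09 and Ahcyl1 by 0.38 ± 0.06. Mtrr and Ahcyl2 stood at 0.00 ± 0.10 and 0.00 ± 0.09. At an unadjusted p under 0.05 edgeR gave 5 higher and 1 lower, DESeq2 and limma-voom gave 4 higher and 0 lower, and 1 was lower without Y-KO 1 or without Y-Scr 1.

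**Figure D4:**
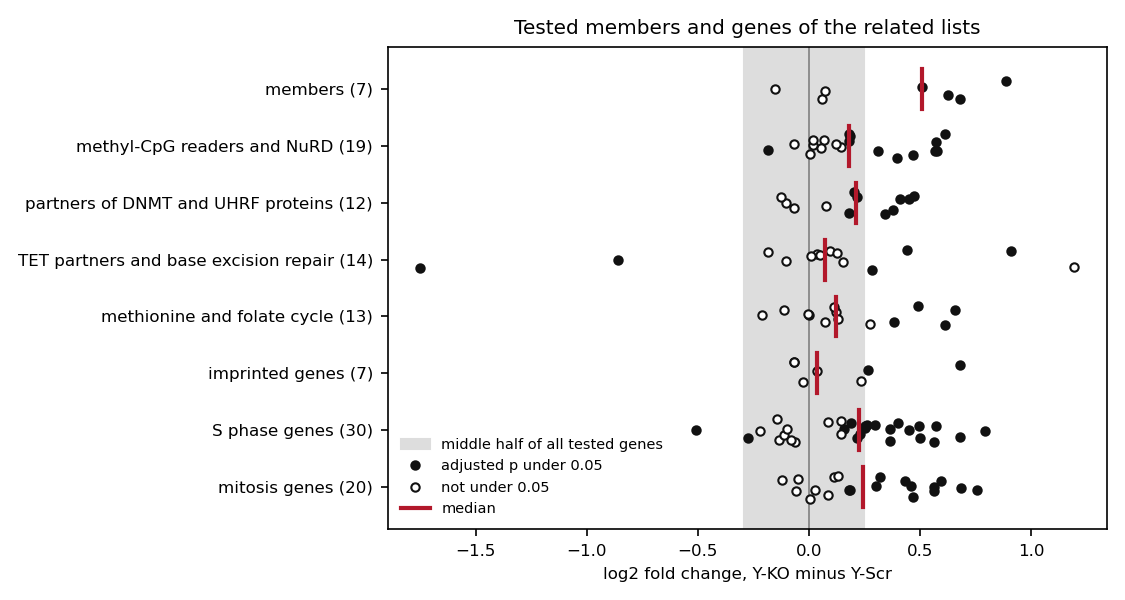
Log2 fold change (Y-KO minus Y-Scr) of each tested gene, for the DNA methylation genes in the top line (called members there) and 7 lists below, with filled points at an adjusted p under 0.05, red bars at the medians and a grey band between the quartiles of all tested genes (-0.29 to 0.25). With no trend removed, as drawn, the median is 0.51 for the 7 DNA methylation genes and between 0.04 and 0.24 for the lists. With the length and GC trends removed the median is 0.14 for the 7 genes. It is then 0.03 for TET partners and base excision repair, 0.09 for methionine and folate and 0.15 for imprinted genes. For partners of DNMT and UHRF proteins it is 0.15, for readers and NuRD 0.20, for S phase 0.21 and for mitosis 0.26.

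Germline genes that DNA methylation is known to keep silent were read beside the enzymes, and so were imprinted genes. Of 25 germline genes with methylated promoters, 12 had 0 counts in all 6 libraries and 1, Piwil2, was tested, at 13.1 ± 1.72 CPM in Y-KO and 0.193 ± 0.0947 CPM in Y-Scr (SD, n = 3 each). With 4, 4 and 2 counts in Y-Scr, it passed the filter only through the Y-KO libraries, and its rise was already known when the list was made, so its values are a description. Tex101 did not pass the filter, with 21, 12 and 3 counts in Y-KO and 2, 6 and 3 counts in Y-Scr, and the groups overlapped. It was called as higher only when Y-KO 3, the lowest Y-KO library, was left out, and it then passed the filter through the other Y-KO libraries. Of 25 imprinted genes, whose parental copies differ in methylation, 12 had 0 counts throughout and 7 were tested. Of these, Igf2r rose by 0.68 ± 0.11 (SE), Inpp5f rose by 0.26 ± 0.09 and 0 fell. Over all tested genes, 20.7% rose and 23.0% fell. Kcnq1ot1 (0.23 ± 0.20), Zrsr1 (-0.07 ± 0.14), Impact (-0.03 ± 0.08) and Mcts2 (0.04 ± 0.45) did not pass. Inpp5f lost its call without Y-KO 1, 2 or 3 or Y-Scr 1, with no low-count filter, with the block and with either trend removed, and for falls in both lists the count was 0 at an unadjusted p under 0.05 in edgeR and also with DESeq2 and limma-voom.

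Genes of S phase, in which Dnmt1 and Uhrf1 are known to be transcribed most, and of mitosis were read as well. Over all tested genes, 20.7% rose and 23.0% fell. Of 30 S phase genes, 18 rose and 2 fell, with a median log2 fold change of 0.22. Chaf1a, of the chaperone that loads histones at forks, stood at 0.79 ± 0.09 (SE), Cdc6 at 0.68 ± 0.09, Mcm4 at 0.56 ± 0.06 and Rfc1 at 0.45 ± 0.07, while Gins3 (0.08 ± 0.09) and Rfc5 (-0.08 ± 0.08) did not pass. The falls were in genes of the clamp loader, Rfc4 at -0.51 ± 0.09 (adjusted p = 0.00011, edgeR) and Rfc3 at -0.28 ± 0.08 (adjusted p = 0.011). Rfc3 lost its call without Y-KO 2, Y-KO 3 or Y-Scr 2 and with the length and GC trends removed. The count of falls was 1 without Y-KO 2, Y-KO 3 or Y-Scr 2 and 4 without Y-Scr 1. Of 20 mitosis genes, 12 rose and 0 fell, also with DESeq2 and limma-voom and with 0 falls at an unadjusted p under 0.05, and the median was 0.24. Bub1b (0.59 ± 0.07), Plk1 (0.56 ± 0.06), Cenpf (0.68 ± 0.09) and Tpx2 (0.47 ± 0.06) rose, while Aurka (0.03 ± 0.06) and Ccnb2 (0.00 ± 0.07) did not pass. Pcna, the clamp that tethers Dnmt1 to forks, stood at -0.10 ± 0.06 (adjusted p = 0.193, edgeR). The part of these cell cycle genes in the rise of Dnmt1 and Uhrf1 was not tested.

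Dnmt3a, which had the largest fold change of the 4 called DNA methylation genes, was compared with other protein-coding genes of at least 5 CPM by Pearson's r of log2 CPM over the 6 libraries. The 5 most alike were Wdr46, Cryab, Mllt6, Lrfn4 and Hsd17b11, with r between 0.995 and 0.999. Their log2 fold changes ran from 0.18 for Hsd17b11 (adjusted p = 0.121, edgeR) to 0.63 for Mllt6 (adjusted p = 3.5e-05). Cryab, at 0.30, did not pass either (adjusted p = 0.065, edgeR). Of 9466 genes compared, 530 (5.6%) had an r over 0.95. Such an r over the 6 libraries includes any difference between the groups.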

How the data were processed

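The authors deposited 1 table of raw read counts per gene for the 6 libraries, with gene lengths in bases. The software, per the submitters' processing notes, was STAR 2.5.2b, featureCounts 1.5.3, Trimmomatic 0.39, DESeq2 and, for quality control, FastQC 0.12.1, and the builds were GRCm39 and mm39. Of 54495 genes shared with GENCODE M21, 98.3% had its GRCm38 coordinates, including all 10 genes here, so coordinates are given as GRCm38.

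The main test on the counts was edgeR's quasi-likelihood test (edgeR 4.0.16, R 4.3.3), run robustly after filterByExpr and TMM scaling in a model of group alone, with Benjamini-Hochberg adjustment over 12907 genes at a threshold of 0.05. The fit was also run on simulated data in which a far smaller share of genes changed than here, and the outcome is not reported. CPM and RPKM were computed from the counts on TMM-scaled library sizes. Trends of log2 CPM on length and on GC content of the longest transcript were removed with natural splines of 4 degrees of freedom, as offsets. The GC fit was added after seeing the data. Other settings were other scalings, DESeq2 1.42.0, limma-voom (limma 3.58.1), other filters, a replicate block and each library left out.

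The genes and lists were chosen with earlier results of these data known. Named were the 10 genes, the Y genes, of each list up to 4 genes with the smallest and 2 with the largest adjusted p, and the 5 genes most like Dnmt3a. Some genes this rule takes are not reported here. Genes added after seeing values were Pcna, Xrcc1, Rfc3, Rfc4, Mbd3, Rbbp4, Tex101, Dppa3, the overlapping genes and the markers. No library repeated another: within groups, the chi-square statistic was 3.44 to 14.8 times its degrees of freedom. Intervals and floors cover counting error only, not the spread between libraries. PCR copies were not marked, so they were not allowed for either.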

Additional observations from a re-analysis of the deposited data

How the results depend on the processing

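The 4 higher calls among the DNA methylation genes stood as a count between 3 and 4 in the 16 alternatives, and Dnmt1 (0.46 to 0.77), Uhrf1 (0.55 to 0.67) and Dnmt3a (0.56 to 1.00) were called in all of them. With the length trend removed, Tet2 was called lower at -0.37 (1 gene lower in all) and Uhrf2 was at -0.070. With the length and GC trends removed, Tet2 was at -0.38 (1 gene lower), Uhrf2 at -0.075 and Tet3, not called, at 0.14. The cause was not tested. Leaving out 1 library changed no call among the 7 genes.

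For the lists, the count of readers and NuRD genes that fell was 0 with upper-quartile scaling and with the replicate block and 3 with either trend removed, and 0 to 1 with 1 library left out. Partners of DNMT and UHRF proteins that rose numbered 5 with the replicate block and 5 to 8 with 1 library left out. Methionine and folate genes that fell numbered 2 with either trend removed and 0 to 1 with 1 library left out. Germline genes that rose numbered 1 to 2 with 1 library left out. Imprinted genes that rose numbered 1 with no low-count filter, with the replicate block and with either trend removed, and 1 to 2 with 1 library left out. S phase genes that fell numbered 1 to 4 with 1 library left out, and mitosis genes that fell numbered 1 with the length trend removed.

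The replicate numbers did not pair the libraries: deviations from the group means correlated at -0.05, -0.02 and -0.02 between libraries of the same number. With the number as a block, 2333 genes were higher and 2627 lower, against 2667 and 2966 without it, and no call among the 7 genes changed. Depth limits Dnmt3b, Dnmt3l and Tet1, whose counts did not pass the filter. Ratios of Dnmt3a to Dnmt3b and of Tet1 to Tet2 were not run, since Dnmt3b was at 0 and Tet1 at 0 in 5 libraries. Ratios within a library kept their direction with a pseudocount of 1 and with each library left out.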
